A study of Mus musculus with 25 samples.

Results

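Loss of TSC2 leaves the growth-controlling kinase complex mTORC1 switched on without its main brake, and rapamycin blocks part of that activity. The data described here compare messenger RNA in Tsc2-null mouse embryonic fibroblasts after 12 h of rapamycin with the same cells given vehicle. The 12 h rapamycin group held 2 arrays and the vehicle group 3, which are 5 of the 25 arrays of the study, chosen by their labelled line, agent and time. Both groups carry the genotype Tsc2-/- p53-/-, so p53 is missing from treated and control cells alike. Plates of 10 cm at 70% confluence were serum starved for 24 h, with the vehicle DMSO present for 24 h or with 20 nM rapamycin present for 12 h. No vehicle array at 12 h was used here.

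Further groups served for comparison. These were the same line after 2 h, 6 h and 24 h of rapamycin, with 2 arrays each, and a wild-type line (Tsc2+/+ p53-/-) from a littermate with 3 vehicle arrays. A Tsc1-/- line in which p53 was retained and which was immortalized by the 3T3 protocol was also used, with 3 vehicle arrays and 2 at 12 h. Each genotype was 1 immortalized line, and replicates were plates of that line, so p-values measure the spread between plates. Whole-genome Affymetrix mouse arrays were used, and levels are given as log2 values, on which a step of 1 is 2-fold.

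As background, TSC1 and TSC2 form a complex that turns off the small GTPase Rheb, the direct activator of mTORC1. Active mTORC1 raises protein, lipid and nucleotide synthesis, in part by increasing translation of the transcription factors HIF1A and ATF4 and by promoting the processing of SREBP, and it keeps TFEB, a master regulator of lysosomal genes, out of the nucleus. It also feeds back on growth factor signalling: mTORC1 and its target S6 kinase dampen insulin receptor substrates and the route to AKT and ERK.

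The targeted gene was measured first. The Tsc2 probe set read 9.48, 9.54 and 9.46 in the vehicle arrays and 8.20 and 8.51 after 12 h of rapamycin, against a mean of 9.70 ± 0.03 (SD, n = 3) in wild-type cells. Vehicle arrays of the null line thus held clear Tsc2 signal, somewhat below the wild-type mean, and whether the probe set lies within the deleted part of the gene is not known, so it does not check the genotype label. Array medians over the study ran from 6.26 to 6.41, the 2 rapamycin arrays correlated at 0.9967 across probe sets and the vehicle arrays at 0.9976 to 0.9979, and precision is limited by how few arrays there are. Fibroblast markers had a median level of 12.58 in vehicle cells. Medians of the marker lists of endothelium, leukocytes, skeletal muscle, adipocytes and neural cells lay between 5.06 and 6.53, below 6.67, the level under which the dimmest 40% of genes fell. The epithelial list stood above that level, with a vehicle median of 6.92 and a highest member of 12.14.

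Rapamycin for 12 h changed a broad share of the transcriptome. limma's moderated test, fitted to all 25 arrays with Benjamini-Hochberg adjustment, called 6198 of 18161 genes (34.1%) at an adjusted p under 0.05, with 2988 higher (16.5%) and 3210 lower (17.7%). At least 2-fold changes were fewer, at 309 higher (1.7%) and 230 lower (1.27%). The median difference over all genes was -0.056. The counts for gene groups below are read against these shares, and adjusted p-values come from the same limma fit. Some genes belong to several groups, such as Sesn2, Cdkn1a, Stc2 and Col1a1, so the groups are not independent of each other. Arrays report each messenger relative to the rest, so fewer cells in a given state and less RNA per cell cannot be told apart. Genes with several probe sets are given by the brightest one. Of 128 genes named by rule that were called and have further probe sets, 59 had one that was not called and 0 one called the other way. At levels above 6.67 these were Cdc20, Cdc45, Cemip, Col1a1, Cxcl12, Ddit3, Fst, Gmps, Gstm1, Igf1r, Igfbp7, Loxl1, Mxd4, Neu1, Odc1, Pdgfrb, Prps2, Qars, Rrm1, Slc39a14, Srxn1, Txnip and Wipi1.

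The 10 largest rises with groups that did not overlap were led by Mt2, which encodes metallothionein 2, a small protein that binds zinc and copper. It read 8.96, 9.04 and 8.81 in vehicle and 12.58 and 12.51 after 12 h, a 12.2-fold rise (log2 difference 3.61 ± 0.142 SE, adjusted p = 9.9e-14). Dusp6, a phosphatase that inactivates ERK, read 6.06, 5.87 and 5.71 in vehicle, below the dim level, and 9.36 and 9.12 after rapamycin, a 10.3-fold rise. Ccn2, which encodes connective tissue growth factor, went from 7.25, 7.30 and 7.42 to 10.76 and 10.58, a 10.2-fold rise. The rest were Egr1 (2.91), Rspo1 (2.75), Id1 (2.47), Serpinb6b (2.47), Edn1 (2.45), Fbxo32 (2.26) and Synpo (2.25), with log2 differences in brackets. Rspo1 enhances Wnt signalling, Edn1 is the precursor of the vasoconstrictor endothelin-1, and Fbxo32 encodes atrogin-1, a ubiquitin ligase of muscle wasting and a FOXO target.

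The 10 largest falls included 3 genes of glucose use, Pfkp (-2.28), Slc16a3 (-2.10) and Hk2 (-1.98), the serine synthesis gene Psph (-1.98), the replication licensing gene Cdc6 (-1.94) and Vldlr (-1.93), a lipoprotein receptor. Mllt11 fell most, by 2.30 on the log2 scale. Tuba4a, an alpha-tubulin, fell by 2.00, Kbtbd11 by 2.19 and Gem, a small GTPase that limits calcium channels, by 2.18.

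**Figure D1:**
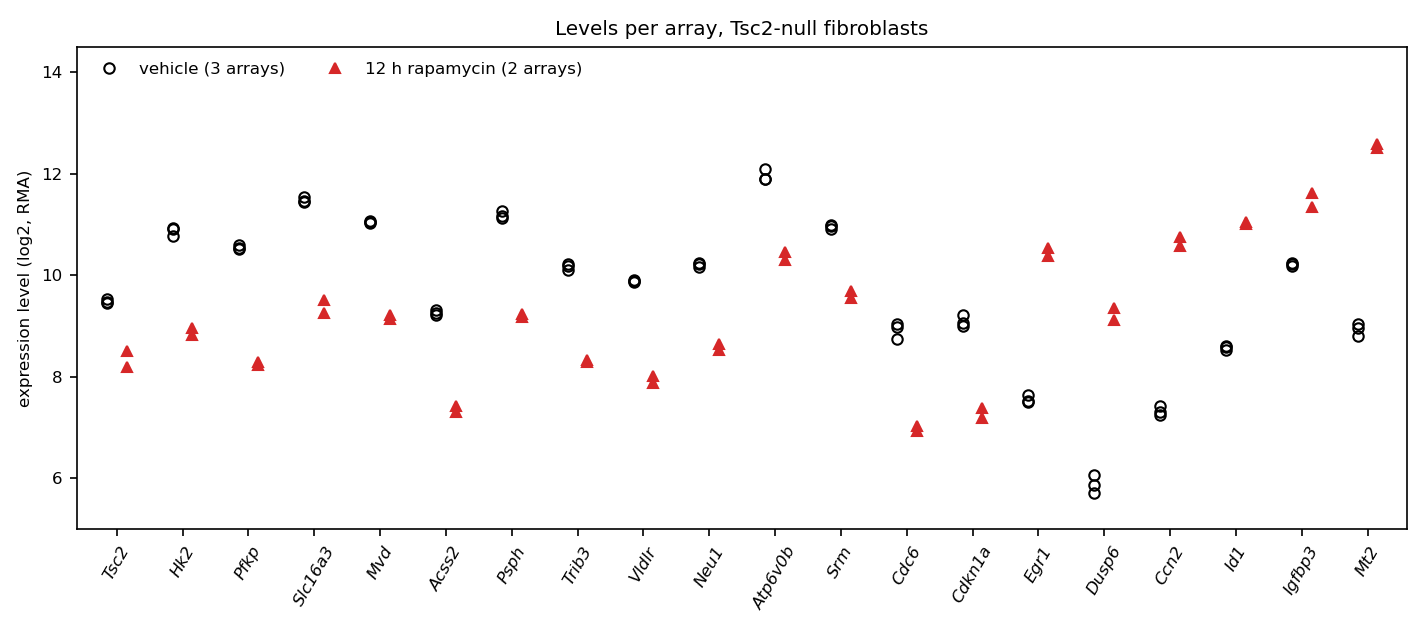
Expression level (log2, RMA) of 20 genes in each vehicle array (open circles, 3) and each 12 h rapamycin array (red triangles, 2) of the Tsc2-null line. The treated arrays lie apart from the vehicle arrays for each gene shown, and Mt2 moves furthest, from between 8.81 and 9.04 to 12.51 and 12.58.

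Among the regulators of mTORC1 itself, 4 of 26 measured genes were higher and 11 lower. Tsc2 messenger fell 2.2-fold (-1.14 ± 0.091, adjusted p = 2.7e-09) and Tsc1 read 8.87, 8.72 and 8.73 in vehicle and 8.03 and 7.99 after rapamycin, a fall of 0.76. Ddit4, which encodes REDD1, a stress-induced inhibitor of mTORC1 that acts through TSC2, read 11.83, 11.73 and 11.75 in vehicle and 10.02 and 9.86 after 12 h, a 3.56-fold fall. Sesn2, a leucine sensor that restrains mTORC1, fell by 1.10. Of the 4 genes that rose, Ddit4l, a relative of Ddit4, rose by 1.21 from a dim level, Rictor, the defining subunit of mTORC2, by 0.71, Rhebl1, a relative of Rheb, by 0.71, and Castor1, an arginine sensor, by 0.30. Castor1 did not pass the threshold without replicate 2 of the 12 h arrays.

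Genes of glycolysis and glucose uptake fell together: 18 of 21 measured genes were lower and 3 higher, with a median log2 difference of -0.73 against -0.056 over all genes. Hk2, the hexokinase that traps glucose in the cell, read 10.94, 10.91 and 10.78 in vehicle and 8.97 and 8.83 after 12 h, a 3.94-fold fall (-1.98 ± 0.089, adjusted p = 4.1e-13). The wild-type mean was 8.67 ± 0.12 (SD, n = 3), below both treated arrays. Pfkp, the platelet-type phosphofructokinase, went from 10.59, 10.51 and 10.54 to 8.30 and 8.24, with a wild-type mean of 8.24. Slc16a3, the lactate exporter MCT4, went from 11.45, 11.46 and 11.54 to 9.52 and 9.26. Pdk1, a kinase that inhibits pyruvate dehydrogenase, fell by 1.03, and Slc2a1, the main glucose transporter of proliferating cells, by 0.73. The exception in size was Slc2a3, the high-affinity transporter GLUT3, which rose from 8.60, 8.58 and 8.67 to 9.55 and 9.60. The other rises, of Pfkm (0.21) and of the lactate transporter Slc16a1 (0.23), were small, and neither was called without vehicle replicate 2, vehicle replicate 3 or 12 h replicate 1, nor Pfkm without 12 h replicate 2.

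In the pentose phosphate group, which makes ribose for nucleotides and NADPH for lipid synthesis, 5 of 9 measured genes were lower and 2 higher. Rpia, which forms ribose 5-phosphate, read 10.70, 10.73 and 10.70 in vehicle and 9.21 and 9.12 after rapamycin, a 2.92-fold fall. Pgd fell by 0.61 and Taldo1 by 0.54, while H6pd, the glucose-6-phosphate dehydrogenase of the endoplasmic reticulum, rose by 0.68 and Prps2 by 0.41. In the list of targets of the hypoxia factor HIF1A outside glycolysis, which also holds the factors Hif1a, Epas1 and Arnt, 12 of 21 were lower and 1 was higher (median -0.64). Egln3, a prolyl hydroxylase that is both target and brake of HIF, went from 9.85, 9.89 and 9.97 to 8.14 and 8.32, a 3.18-fold fall. Ero1a, an oxidase of disulphide formation, fell 3.16-fold, Bnip3, a mitophagy receptor, 2.58-fold, and Higd1a 2.69-fold, while Vegfa, the vascular growth factor, fell by 0.78. Lox, a collagen cross-linking enzyme, rose by 0.51. The messenger of Hif1a itself read 12.70, 12.60 and 12.52 in vehicle and 12.54 and 12.67 after rapamycin, so the groups overlapped (difference 0.00 ± 0.082, adjusted p = 1). With all probe sets of the gene averaged, Hif1a did pass the threshold, since 2 other probe sets read -0.33 and -0.30.

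Lipid synthesis genes fell in large part. Of 23 measured genes of sterol synthesis and uptake, 19 were lower and 3 higher (median -0.96). Mvd, the decarboxylase of the mevalonate pathway, read 11.05, 11.04 and 11.08 in vehicle and 9.22 and 9.14 after 12 h, a 3.67-fold fall (-1.88 ± 0.078, adjusted p = 1.9e-13). Later enzymes of cholesterol synthesis fell as well: Hsd17b7 fell by 1.73, Sc5d by 1.51, Msmo1 by 1.43 and Sqle by 1.32 on the log2 scale. Of the 3 rises, Abca1, which exports cholesterol from cells, rose by 0.62, and Srebf2, the sterol regulator itself, and Insig1, which retains its precursor in the endoplasmic reticulum, rose by 0.26 and 0.25. Srebf2 was not called without vehicle replicate 2, vehicle replicate 3 or 12 h replicate 1, and Insig1 not without vehicle replicate 2 or either 12 h replicate.

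Fatty acid synthesis and desaturation moved the same way, with 14 of 21 genes lower and 3 higher (median -0.58). Acss2, which makes acetyl-CoA from acetate, went from 9.32, 9.21 and 9.25 to 7.42 and 7.31, a 3.72-fold fall. Elovl6, an elongase, read 10.71, 10.70 and 10.70 in vehicle and 9.49 and 9.48 after rapamycin. Scd1, the stearoyl-CoA desaturase, fell by 1.06, Fasn, the fatty acid synthase, by 0.87, Elovl1 by 0.85 and Srebf1, which encodes the lipogenic SREBP-1, by 0.71. Agpat2 rose by 0.52, Mid1ip1 by 0.32 and Acacb by 0.29, and the last of these was not called without 12 h replicate 2.

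Targets of ATF4, the transcription factor of the amino acid response, and genes of amino acid synthesis fell as a block. In this list, which includes Atf4, 27 of 34 measured genes were lower and 1 was higher (median -0.91). Atf4 messenger itself read 12.62, 12.66 and 12.70 in vehicle and 11.72 and 11.79 after 12 h, a 1.88-fold fall (-0.91 ± 0.074, adjusted p = 3.5e-09). Psph, which completes serine synthesis, went from 11.13, 11.17 and 11.26 to 9.23 and 9.17, a 3.96-fold fall. Trib3, a pseudokinase induced by ATF4 that limits AKT, went from 10.19, 10.10 and 10.23 to 8.29 and 8.33. Vldlr read 9.90, 9.86 and 9.88 in vehicle and 7.87 and 8.02 after rapamycin, with a wild-type mean of 6.08. The mitochondrial folate enzymes Mthfd2 (-1.43) and Mthfd1l (-1.35) fell. Ddit3, which encodes the stress factor CHOP, fell by 1.51, Slc7a11, the cystine importer, by 1.13, Asns, asparagine synthetase, by 1.05 and Psat1 by 0.79. Cebpb, a partner of ATF4, rose by 0.66. Asns stood higher in wild-type cells (12.76) than in either Tsc2-null group, whose array values lay between 10.67 and 11.77, while Trib3 stood at 8.74 there.

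Cytosolic aminoacyl-tRNA synthetases, which charge tRNAs with amino acids and many of which ATF4 induces, were lower in 17 of 19 measured genes, and 1 was higher (median -0.56). Aars read 12.35, 12.26 and 12.26 in vehicle and 11.25 and 11.31 after 12 h, a 2.02-fold fall. Gars read 12.65 in each vehicle array and 11.78 and 11.71 after rapamycin, and Tars fell by 0.94 and Nars by 0.85. Qars rose by 0.61 with its kept probe set, while another probe set of that gene read -0.04 and was not called.

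The letters of a C/EBP-ATF response element, TGATGNAA on either strand, were looked for in the 300 bases around each RefSeq gene start (250 before, 50 after, build GRCm38.p6). They stood in 8 of 29 ATF4-list genes with a window (27.6%) and in 5 of 12 synthetases (41.7%), against 3.24% of 14461 measured genes with a window and 3.97% of all 32851 windows. Windows of Trib3 (chr2:152344011-152344310, minus strand), of 1 of 2 starts of Vldlr (chr19:27216770-27217069, plus strand), of Aars (chr8:111033592-111033891, plus strand) and of Tars (chr15:11399609-11399908, minus strand) are shown because these genes were among those that fell, with the matching letters in capitals and the sequence on the gene's strand. A match describes letters and is no evidence of binding. The ATF4 list was drawn up from known targets and many synthetases are known ones, so a share above that of all genes was largely built in. Whether members that fell held the letters more often than other members was not tested. Searched in the same way, TCACNCCAC, letters of a sterol regulatory element, stood in 1 of 19 sterol-list genes with a window (5.26%, Hmgcs1), against 1.46% of measured genes and 1.24% of all windows.
Trib3: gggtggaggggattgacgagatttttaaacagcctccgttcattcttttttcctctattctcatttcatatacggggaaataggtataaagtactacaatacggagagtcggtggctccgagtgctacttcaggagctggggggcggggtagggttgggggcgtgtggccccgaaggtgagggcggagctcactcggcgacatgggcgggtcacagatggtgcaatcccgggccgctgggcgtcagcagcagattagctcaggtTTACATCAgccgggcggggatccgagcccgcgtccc
Vldlr: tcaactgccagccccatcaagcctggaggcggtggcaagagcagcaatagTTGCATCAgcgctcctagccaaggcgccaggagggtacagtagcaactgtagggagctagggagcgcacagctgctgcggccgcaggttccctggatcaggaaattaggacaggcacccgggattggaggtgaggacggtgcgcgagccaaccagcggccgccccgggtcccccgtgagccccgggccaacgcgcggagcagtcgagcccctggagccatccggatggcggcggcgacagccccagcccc
Aars: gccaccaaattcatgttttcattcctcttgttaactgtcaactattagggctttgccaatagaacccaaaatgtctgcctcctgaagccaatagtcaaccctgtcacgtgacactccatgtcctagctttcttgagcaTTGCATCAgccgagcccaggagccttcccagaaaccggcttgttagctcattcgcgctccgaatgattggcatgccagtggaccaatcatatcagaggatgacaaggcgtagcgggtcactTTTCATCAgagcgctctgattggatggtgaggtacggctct
Tars: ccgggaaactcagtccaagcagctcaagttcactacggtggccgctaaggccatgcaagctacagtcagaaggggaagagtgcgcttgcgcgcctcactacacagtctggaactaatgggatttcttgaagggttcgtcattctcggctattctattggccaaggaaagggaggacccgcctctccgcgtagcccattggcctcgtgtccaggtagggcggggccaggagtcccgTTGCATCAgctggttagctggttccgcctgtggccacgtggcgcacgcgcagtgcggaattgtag

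Lysosomal and autophagy genes leaned lower: 16 of 32 measured genes were lower, 4 higher and 12 not called (median -0.25). Over all genes 17.7% were lower and 16.5% higher, so the rises were no more frequent than elsewhere. Neu1, a sialidase of the lysosome, read 10.16, 10.22 and 10.25 in vehicle and 8.64 and 8.52 after 12 h, a 3.09-fold fall, although a dimmer probe set of the gene read -0.35 with an adjusted p of 0.061. Gla, alpha-galactosidase A, went from 10.53, 10.50 and 10.69 to 9.43 and 9.58. The regulators of mTORC1 at the lysosome that TFEB and its relatives are known to induce fell too, with Fnip2 lower by 1.25, Rragc by 0.78, Rragd by 0.77 from a dim level and Flcn by 0.52. Of the 4 genes that rose, Wipi1, an autophagosome component, rose by 0.59, Gabarapl1, a relative of LC3, by 0.33, Tfeb itself by 0.31 and Glb1 by 0.23. Tfeb was not called without vehicle replicate 3 or either 12 h replicate, and Glb1 not without vehicle replicate 2, vehicle replicate 3 or 12 h replicate 1.

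Subunits of the vacuolar proton pump, which acidifies lysosomes and on which mTORC1 docks through its Ragulator partners, were lower in 13 of 15 genes and higher in none (median -0.56). Atp6v0b went from 11.90, 11.89 and 12.09 to 10.45 and 10.30, a 3.01-fold fall, Atp6v1h fell 2.35-fold and Atp6v1a, the catalytic subunit, read 12.35 in each vehicle array and 11.47 and 11.33 after rapamycin. The wild-type means were 10.48 for Atp6v0b and 9.19 for Atp6v1h. TCACGTGA, the core of the CLEAR element that TFEB recognises, stood in 4 of 28 lysosomal genes (14.3%) and 3 of 10 pump genes with a window (30%), against 1.63% of measured genes and 0.974% of all windows. The letters of an E-box lie within this core. TFEB is known as a regulator of lysosomal genes, so the choice of lists largely fixed a share above that of all genes. Its relation to the falls was not tested. The windows of Gla (chrX:134600956-134601255, minus strand), which holds 2 matches, and Atp6v1a (chr16:44139210-44139509, minus strand) are shown as examples that fell.
Gla: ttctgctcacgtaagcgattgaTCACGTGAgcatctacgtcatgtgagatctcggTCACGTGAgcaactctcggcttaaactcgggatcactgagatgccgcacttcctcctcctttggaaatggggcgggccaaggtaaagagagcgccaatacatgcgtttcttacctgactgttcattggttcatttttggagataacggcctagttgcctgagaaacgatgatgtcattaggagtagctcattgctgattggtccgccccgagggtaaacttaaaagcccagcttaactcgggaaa
Atp6v1a: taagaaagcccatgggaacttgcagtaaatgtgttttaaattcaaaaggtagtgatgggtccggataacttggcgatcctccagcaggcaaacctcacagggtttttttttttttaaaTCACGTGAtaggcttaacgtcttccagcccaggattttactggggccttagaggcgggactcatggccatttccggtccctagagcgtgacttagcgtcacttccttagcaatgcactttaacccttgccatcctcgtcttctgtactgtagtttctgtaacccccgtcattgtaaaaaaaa

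Protein production machinery was divided by class. Ribosome biogenesis and MYC target genes were lower in 25 of 35 cases and higher in 5 (median -0.53). Srm, spermidine synthase, went from 10.92, 10.97 and 10.99 to 9.69 and 9.56, a 2.52-fold fall. Gnl3, nucleostemin of the nucleolus, fell by 1.08, Nop2 by 0.84 and Nhp2 by 0.78. Against that direction, Myc messenger rose from 8.30, 8.27 and 8.29 to 9.08 and 9.00, Mxd4, a repressor that competes with MYC for its partner, by 1.21, Odc1 by 0.67, Ubtf, a factor of ribosomal RNA transcription, by 0.66 and Polr1c by 0.42. Cytosolic ribosomal proteins and translation factors, by contrast, were lower in 0 of 15 and higher in 6 (median 0.14), with small rises in Eef2 (0.42), Rpl10a (0.38) and Rpl11 (0.29). None of these 6 was called with the deposited ratio table. Nucleotide synthesis was lower in 11 of 18 genes and higher in 2, with Pfas down by 0.78 and Gmps by 0.57, and Ctps up by 0.47.

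Protein turnover and energy genes were next. The proteasome and folding group was lower in 21 of 24 genes and higher in none (median -0.49): Psmd14 fell by 1.00, Psmc4 by 0.86, Psmd12 by 0.72 and Hsph1, a large heat shock protein, by 1.26. Of the antioxidant group under NRF2, 8 of 14 were lower and 3 higher. Hmox1, haem oxygenase, went from 10.96, 10.92 and 10.99 to 9.55 and 9.63, Srxn1 fell by 0.97, Gsr by 0.74 and Txnrd1 by 0.67, while Gsta4 rose by 0.41 and Gstm1 by 0.39. Oxidative phosphorylation and the TCA cycle were mixed, with 10 of 28 lower and 5 higher (median -0.13). Idh3a, an isocitrate dehydrogenase subunit, fell by 1.02, Cycs, cytochrome c, by 0.89 and Ogdh by 0.83, while Uqcrc2 rose by 0.53. The 5 rises of this group became 1 without vehicle replicate 2, 3 without vehicle replicate 3, and 2 without 12 h replicate 1. Of 6 genes around the glucose sensor MondoA, Mlx, its partner, fell by 1.16 and Txnip, its best known target, read 11.33, 11.26 and 11.41 in vehicle and 11.61 and 11.60 after rapamycin, a rise of 0.27 that was not called without vehicle replicate 2 or either 12 h replicate. Its relative Arrdc4 fell by 0.41, and was not called without vehicle replicate 2, vehicle replicate 3 or 12 h replicate 2.

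**Figure D2:**
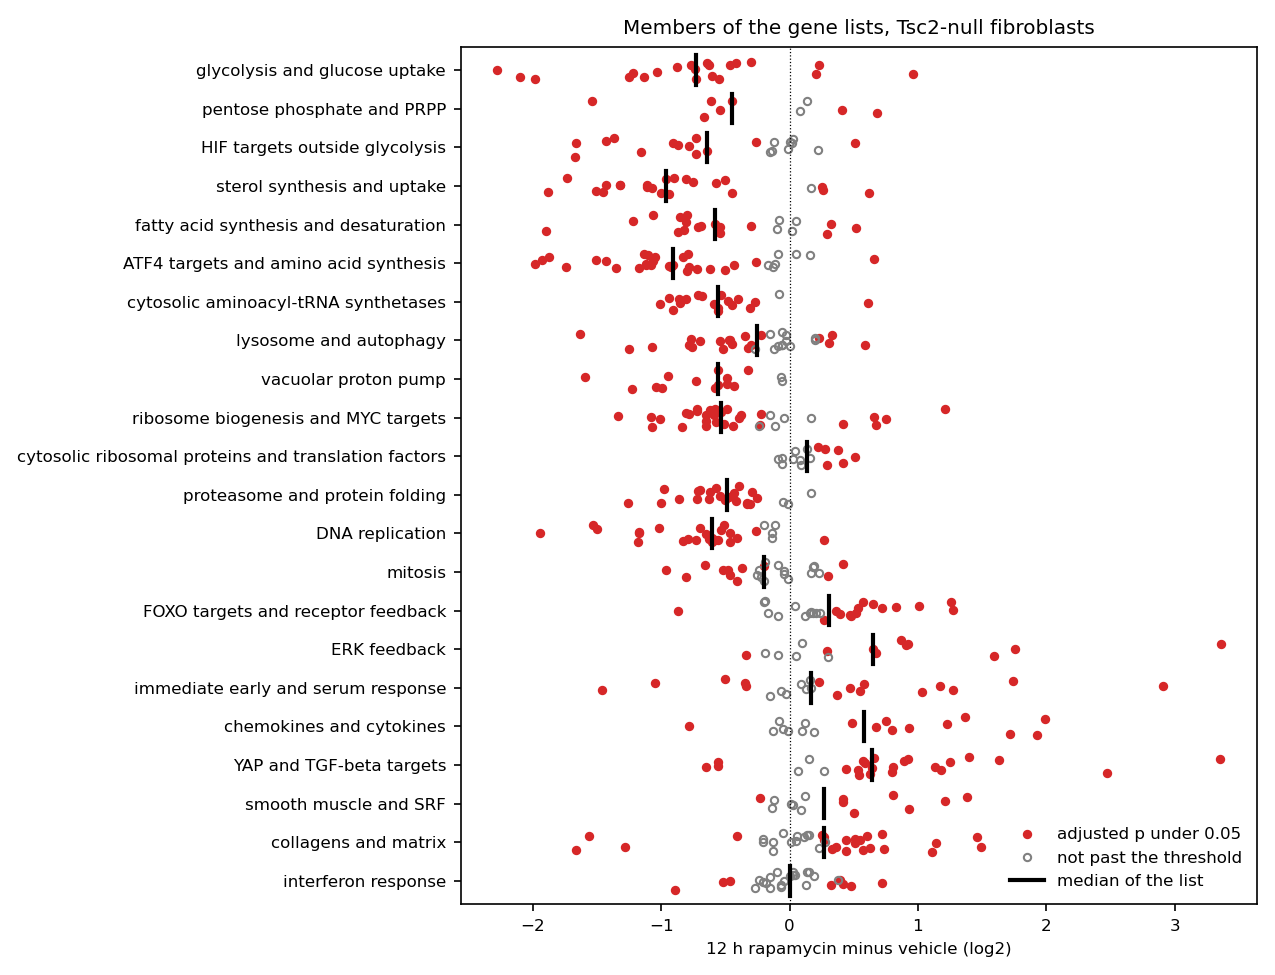
Log2 difference of 12 h rapamycin minus vehicle for each measured member of 22 gene lists in the Tsc2-null line. Red points passed an adjusted p under 0.05, open grey points did not, and black bars mark list medians, which run from -0.96 for sterol synthesis to 0.65 for ERK feedback.

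Cell cycle genes separated into replication and mitosis. DNA replication genes were lower in 23 of 28 cases and higher in 1 (median -0.60). Cdc6 read 9.04, 8.98 and 8.75 in vehicle and 7.04 and 6.93 after 12 h, a 3.83-fold fall (-1.94 ± 0.148, adjusted p = 1.4e-09). Rrm2, the S-phase subunit of ribonucleotide reductase, went from 11.72, 11.69 and 11.62 to 10.24 and 10.11. Pcna, the sliding clamp, fell by 1.17, Cdc45 by 1.18 and Ccne1, cyclin E1, by 0.65, while Rrm1 rose by 0.27 and was not called without 12 h replicate 1. Mitotic genes had moved less by 12 h, with 9 of 24 lower and 2 higher (median -0.20). Bub1, a checkpoint kinase, fell by 0.96, Aurka by 0.81 and Aurkb by 0.66, whereas Ccnb2 rose from 10.02, 9.89 and 9.96 to 10.41 and 10.35, and Cdc20 rose by 0.30, a call that was lost without 12 h replicate 2.

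The letters TTTNGCGC of an E2F site stood in 9 of 23 replication genes with a window (39.1%), against 2.32% of measured genes. As with the lists above, members were picked by known function, and the relation of this share to the falls was not tested. Among G1 regulators 6 of 17 were higher and 5 lower. Cdkn1a, the CDK inhibitor p21, went from 9.07, 9.21 and 9.01 to 7.38 and 7.18, a 3.52-fold fall in cells without p53, its best known activator. Cdkn2d fell by 1.00, Ccnd2 by 0.58 and Cdk2 by 0.56, while Cdk6 rose by 0.87 and Cdkn2b by 0.71. Cyclin D1 (Ccnd1) differed by 0.11 and p27 (Cdkn1b) by -0.02, with overlapping arrays and adjusted p-values of 0.49 and 0.94, although a dimmer probe set of Cdkn1b read -0.44 and was called (limma adjusted p = 0.037 over all probe sets). Of 18 genes known as p53 targets, 10 were lower and 3 higher. Gadd45a fell by 1.18 and Aen by 0.99, while Pmaip1 rose from 6.23, 6.31 and 5.91 to 7.87 and 7.12, Fas by 0.62 and Ei24 by 0.57.

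Genes of growth factor reception and FOXO control were next. Of 26 genes known as FOXO targets or as parts of receptor feedback, 14 were higher and 1 lower (median 0.31). Irs2, an insulin receptor substrate, read 7.85, 7.79 and 7.57 in vehicle and 8.99 and 9.00 after 12 h, a 2.39-fold rise (1.26 ± 0.099, adjusted p = 1.9e-09). Pdgfra, a receptor of platelet-derived growth factor, went from 11.12, 11.05 and 10.97 to 12.40 and 12.23. Klf2 rose by 1.01 and Igf1r by 0.83, Tob1, an antiproliferative factor, fell by 0.87, and Irs1 (0.16) was called only without 12 h replicate 2 (0.31). Pdgfrb rose by 0.39, and was not called without vehicle replicate 3 or 12 h replicate 1.

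IGF binding proteins went both ways, with 5 of 12 genes of the IGF group higher and 3 lower. Igfbp5 fell from 9.59, 9.37 and 9.29 to 7.53 and 7.57, a 3.64-fold fall, and Stc1, stanniocalcin, which curbs an IGF-releasing protease, fell 3.31-fold. Igfbp3 rose from 10.18, 10.22 and 10.25 to 11.63 and 11.35, Igfbp2 by 1.25 and Igfbp7 by 1.31.

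Genes of ERK feedback rose in most cases, while immediate early genes went both ways. Of 15 ERK feedback genes 9 were higher and 1 lower (median 0.65). Besides Dusp6 (3.36), Spry2, an inhibitor of receptor tyrosine kinases, read 6.87, 6.89 and 6.91 in vehicle and 8.73 and 8.57 after rapamycin, a 3.38-fold rise. Spry1 rose by 0.92 and Phlda1 by 0.91, while Ier3 fell by 0.34. Immediate early and serum response genes were higher in 10 of 22 cases and lower in 5. Egr1, a zinc finger factor induced within minutes of ERK activation, read 7.64, 7.53 and 7.50 in vehicle and 10.53 and 10.39 after 12 h, a 7.49-fold rise (2.91 ± 0.089, adjusted p = 2.7e-15). Egr2 rose by 1.74 from a dim level and Fos by 1.27. In the other direction, Fosl1, a FOS relative, went from 8.35, 8.63 and 8.44 to 6.88 and 7.15, and Klf10 fell by 1.05. Wild-type vehicle cells had means of 11.90 for Egr1 and 10.18 for Dusp6.

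Targets and components of the YAP and TGF-beta pathways, counted in 1 list, were higher in 19 of 25 cases and lower in 3 (median 0.64). Id1, an inhibitor of helix-loop-helix factors and a BMP target, read 8.58, 8.53 and 8.60 in vehicle and 11.06 and 11.02 after rapamycin, a 5.54-fold rise. Id3 rose by 1.13 and Ajuba, an adaptor of the Hippo pathway, from 9.10, 9.10 and 9.20 to 10.74 and 10.79. Lower members were Bambi (-0.65), a decoy receptor, and Grem1 (-0.56) and Ankrd1 (-0.56), and Grem1 was not called without 12 h replicate 1. Smooth muscle and SRF genes were higher in 7 of 14 cases and lower in 1: Tagln rose by 1.38, Myl9 by 1.21, Cnn2 by 0.93, Tpm1 by 0.81 and Acta2, smooth muscle actin, by 0.42. The member that fell was Myh11, and no gene of the list read below -0.23.

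Collagens and matrix genes were higher in 19 of 36 cases and lower in 4 (median 0.27). Thbs1, thrombospondin 1, went from 11.08, 11.18 and 11.01 to 12.63 and 12.53, and Loxl1 from 8.17, 8.18 and 8.29 to 9.67 and 9.68. Timp3, an inhibitor of matrix proteases, rose by 1.14. Of 7 matrix proteases in the list 3 fell, with Mmp13 going from 10.11, 10.19 and 10.33 to 8.61 and 8.49, Mmp3 falling 2.96-fold and Adamts1 2.43-fold. Adamts5 rose by 1.11 and Mmp2 by 0.63, both named after their values were seen, and Mmp14 (0.14) was not called, nor was Mmp9 (0.23), which passed without vehicle replicate 3 and under 3 other settings. Vcan fell by 0.41 and was not called without 12 h replicate 1. Fibroblast markers were higher in 9 of 12 cases and lower in none, and 3 of these with the deposited ratios. Col1a2 rose by 0.33 (-0.07 in the deposited ratios, not called), Fn1 by 0.44 and Thy1 by 0.86, and Col1a1 by 0.36 with its kept probe set, beside another that read -0.05.

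Secreted signals of inflammation were often higher: 10 of 18 chemokine and cytokine genes were higher and 1 lower (median 0.58). Ccl2, a monocyte attractant, read 10.40, 10.42 and 10.54 in vehicle and 12.49 and 12.41 after 12 h, a 3.97-fold rise, with a wild-type mean of 13.38. Il6 rose from 6.30, 6.20 and 6.13, below the dim level, to 8.24 and 8.05. Csf1, the macrophage growth factor, rose 3.29-fold and Cxcl12 2.58-fold. Of 27 interferon response genes 5 were higher, 3 lower and 19 not called (median 0.00), against 16.5% higher and 17.7% lower over all genes. In vehicle 10 of them stood below the dim level, and likewise 10 after 12 h. Fewer rises were called without 12 h replicate 1. Stat2 fell by 0.89 and Irf1 and Gbp2 rose by 0.42 and 0.48, while Ifit1 stood at 5.91, 5.71 and 6.00 against 5.84 and 5.82.

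Genes of zinc handling, Mt2 included, were uneven, with 3 of 9 higher and 3 lower. Mt1 was already high in vehicle, at 12.22, 12.09 and 12.18, and read 13.19 and 13.12 after rapamycin. Slc30a1, which exports zinc from cells, rose 2.86-fold. Slc39a14, an importer, fell by 0.62 and Mtf1, the metal-sensing factor that induces metallothionein genes, by 0.34. The count of falls was 1 without 12 h replicate 2. In the circadian group 8 of 18 were lower and 4 higher: Ciart fell 3.36-fold, Cry1 3.1-fold, Noct 3.08-fold and Bhlhe40 2.15-fold, and Nr1d2 rose by 1.07. Those 4 rises became 2 without vehicle replicate 3 or either 12 h replicate.

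Outside the epithelial list, most markers of other cell types stayed low, but each list had members above 6.67. In vehicle, 7 of 8 endothelial, 5 of 9 leukocyte, 6 of 8 muscle, 4 of 6 adipocyte and 5 of 8 neural markers lay below that level. The highest members read 7.88, 8.30, 7.94, 7.30 and 8.07 in the same order. Of the epithelial list 3 of 10 genes rose: Krt18, a keratin, from 7.75, 7.70 and 7.66 to 9.53 and 9.44, Cdh1, E-cadherin, from 8.01, 8.16 and 7.94 to 9.24 and 8.87, and Krt14 by 0.83. Cdh1 had a mean of 3.85 in wild-type cells. The levels of the 10 epithelial markers ran from 4.70 to 12.14 in vehicle and from 4.53 to 11.99 after 12 h, with medians of 6.92 and 7.17. Of 8 endothelial markers 1, Kdr, rose by 0.39, and was not called without 12 h replicate 2, while Pecam1 and Cdh5 lay between 4.75 and 5.46 on each of the 5 arrays. Of 9 leukocyte markers Cd68 rose by 0.36 and Cd14 by 0.23, Cd68 was not called without 12 h replicate 2 and Cd14 not without any 1 of the 5 arrays, and Cd3e and Cd79a were not called. In the muscle, adipocyte and neural lists 1 gene each fell, by 0.39 for Myod1, 0.31 for Adipoq and 0.37 for Tubb3, and each of these calls depended on single arrays: Myod1 was lost without 12 h replicate 2, Adipoq without any 1 vehicle replicate or 12 h replicate 2, and Tubb3 without vehicle replicate 1 or 12 h replicate 1.

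The 12 h arrays were next set against those at 6 h. Here 1512 genes (8.33%) differed, 622 higher at 12 h (3.42%) and 890 lower (4.9%). Members of several groups were lower at the later time: 23 of 34 ATF4-list genes were lower at 12 h than at 6 h (median -0.51), as were 17 of 23 sterol genes (-0.51), 12 of 19 synthetases (-0.35), 16 of 24 proteasome and folding genes (-0.31), 17 of 28 replication genes (-0.46) and 17 of 24 mitotic genes (-0.45), and none of these 6 lists had a member that rose. The mitotic list had stood above vehicle at 6 h, with a median of 0.30. In ribosome biogenesis 3 of 35 were lower and 2 higher, and in the lysosomal list 4 of 32 were lower and 1 higher. Individual genes followed both courses. Hk2 stood at -2.26 relative to vehicle at 6 h and at -1.98 at 12 h, and the 12 h minus 6 h difference of 0.28 was not called, though it was after quantile normalization (adjusted p = 0.0202), while Pfkp fell by 1.01 at 6 h and by a further 1.27 to 12 h.

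The largest falls from 6 h to 12 h were those of Pfkp, Bcat1 (-1.24), Dpt (-1.24), Trib3 (-1.23) and Psph (-1.19), and Bcat1 encodes the cytosolic transaminase of branched-chain amino acids. The largest rises were Mt2 (2.80), Rspo1 (1.61), Mt1 (1.53), Cited4 (1.33) and Slc30a1 (1.31). Mt1 stood below vehicle by 0.54 at 6 h and above it by 0.99 at 12 h, and Mt2 rose by 0.81 and 3.61 at these times. Egr1 differed by 0.11 between 6 h and 12 h and was not called; against vehicle it was higher by 2.89 at 2 h. The number of calls rested on single arrays: without 6 h replicate 2 there were 220 higher genes, without 12 h replicate 1 340 higher and 582 lower, without 12 h replicate 2 382 higher and 385 lower, and without 6 h replicate 1 348 lower.

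**Figure D3:**
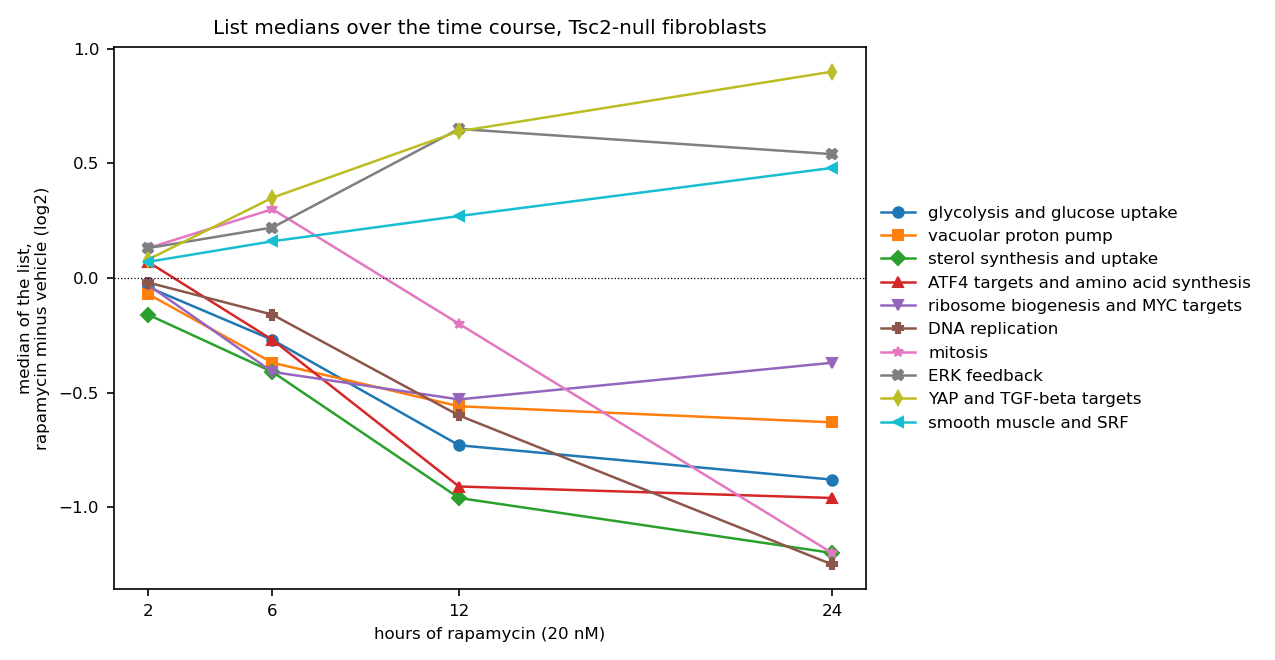
Median log2 difference from vehicle of 10 gene lists after 2, 6, 12 and 24 h of rapamycin in the Tsc2-null line, each time with 2 arrays against the same 3 vehicle arrays. Mitosis stands at 0.30 at 6 h, -0.20 at 12 h and -1.20 at 24 h, while the vacuolar proton pump goes from -0.37 to -0.56 and -0.63.

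From 12 h to 24 h, 1271 genes (7%) differed, 488 higher (2.69%) and 783 lower (4.31%). Mitotic genes made the clearest step, with 23 of 24 lower at 24 h than at 12 h, none higher and a median difference of -0.98. Replication genes fell further in 24 of 28 cases (median -0.57). Bub1 was lower by another 1.39, Rrm2 by 1.23, Aurkb by 1.14 and Ccnb2, which had been above vehicle at 12 h, by 1.03. Of the ATF4 list 14 of 34 fell further and none rose, whereas in the sterol list 4 of 23 were lower and 3 higher, and the proton pump had no member called in this step.

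Smooth muscle genes were higher at 24 h in 6 of 14 cases and lower in none, and Tagln was among the 5 largest rises (1.09), with Cemip (1.42), a hyaluronan-degrading protein, and the matrix or IGF-binding genes Ltbp2 (1.29), Igfbp2 (1.25) and Smoc2 (1.12, not called without 12 h replicate 2). The 5 largest falls were Depdc1a (-1.89), Ffar4 (-1.87), Cxcl3 (-1.84), Ska1 (-1.60) and Shcbp1 (-1.52), and Ska1 is a part of the spindle attachment to chromosomes. Dusp6 and Ccn2 differed by 0.01 and -0.01 between 12 h and 24 h, and Srm rose by 0.59 after its fall. These counts also moved with single arrays: 134 genes were higher without 24 h replicate 1 and 192 without 12 h replicate 2, and 456, 509 and 492 were lower without 24 h replicate 1, 12 h replicate 1 and 12 h replicate 2.

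The response at 12 h was then set against that of the Tsc1-null line, which lacks the partner protein, differs in p53 and derivation, and was compared with its own vehicle arrays. Titles give 12 h for its treated arrays and a free-text field gives 11 h, and the titles were used. The test of line by rapamycin called 2046 genes (11.3%), 980 with a higher response in the Tsc2-null line (5.4%) and 1066 with a lower one (5.87%). With 1 line per genotype, the missing gene, p53 and the line cannot be told apart. Without replicate 2 of the 12 h arrays, the count of lower responses was 681 for the Tsc2-null array and 646 for the Tsc1-null array left out.

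Cell cycle and sterol genes differed between the lines. In DNA replication 17 of 28 genes had a lower response in the Tsc2-null line and none a higher one, and the list median was -0.60 in that line and 0.00 in the Tsc1-null line. Cdc6 fell by 1.94 against a difference of -0.28, and Cdc45 by 1.18 against 0.01. In mitosis 16 of 24 had a lower response and none a higher one, and in the sterol list 15 of 23 and none, with medians of -0.96 and -0.42. The ATF4 list went the other way in part, with 10 of 34 higher and 5 lower responses and medians of -0.91 and -1.05. For Trib3 (-1.87 and -2.04), Asns (-1.05 and -1.11), Atf4 (-0.91 and -0.96) and Ddit3 (-1.51 and -1.54) no difference between the lines was called, nor was one for Ddit4 (-1.83 and -1.60) or Gla (-1.07 and -1.10).

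Single genes differed by more. The 5 largest gaps towards a higher response in the Tsc2-null line were those of Rspo1 (2.75 against -0.31), Id1 (2.47 against -0.52), Mt2 (3.61 against 0.68), Edn1 (2.45 against 0.13) and Daam2 (2.06 against -0.09), which acts in Wnt signalling. Towards a lower response they were Angpt1 (-1.47 against 0.82), an angiopoietin, Col8a1 (-0.13 against 2.08), the phosphate transporter Slc20a1 (-1.77 against 0.20), Slc16a3 (-2.10 against -0.13) and Fst (0.47 against 2.41), which binds activin. Hk2 fell in both lines (-1.98 and -1.47), a gap of -0.51 that was not called without replicate 2 of the 12 h arrays of either line, and Tsc2 messenger fell by 1.14 in the Tsc2-null line and differed by 0.23 in the Tsc1-null line.

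**Figure D4:**
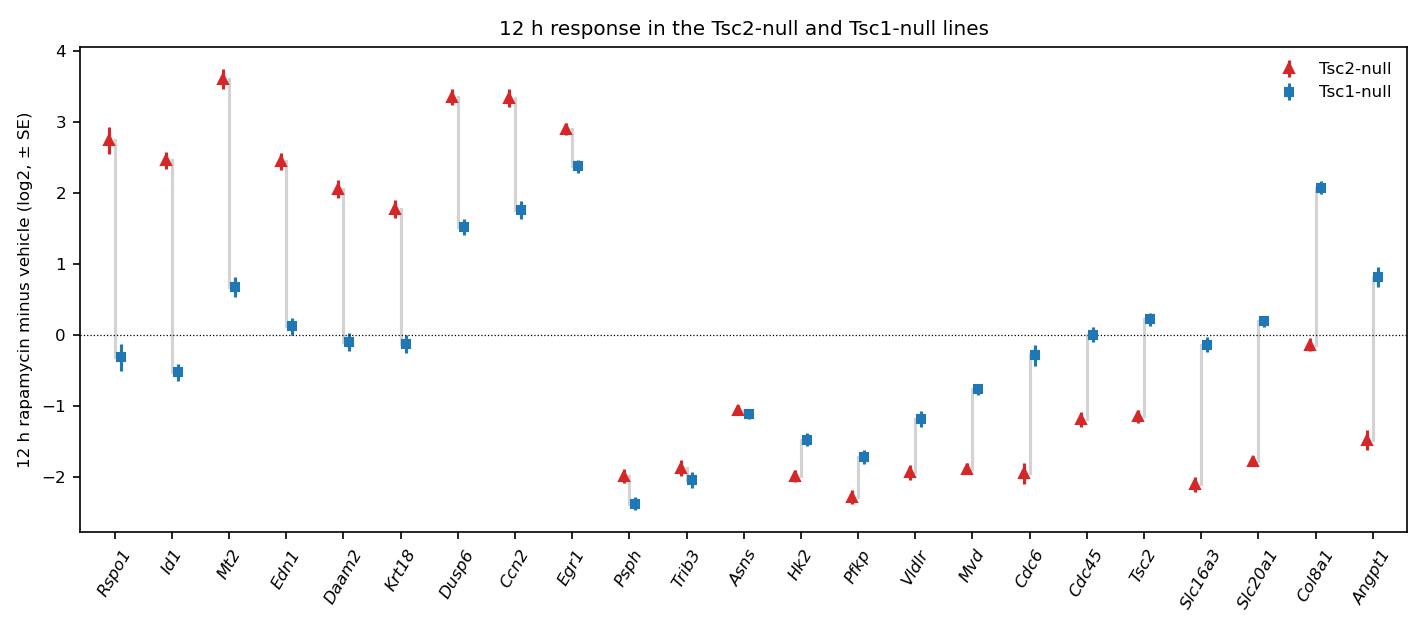
Log2 difference of 12 h rapamycin minus vehicle, with its standard error, for 23 genes in the Tsc2-null line (red triangles) and the Tsc1-null line (blue squares), 2 rapamycin and 3 vehicle arrays in each. Trib3 and Asns lie close together in both lines, while Rspo1, Id1 and Edn1 are above 2.4 in the Tsc2-null line and between -0.52 and 0.13 in the other.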

How the data were processed

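Messenger RNA of 25 plates was measured with 1 Affymetrix mouse array each. The authors deposited log2 expression values per probe set, made with RMA per the submitters' processing notes, which also name limma without versions. A second deposited table holds log2 ratios, for which no source used here gives the floor or summary, with 61.4% of probe sets at 0 on every array. It was used as an alternative for 9522 genes. Probe sets were named through the platform annotation: of 45101, 64 were controls, 34945 named 1 gene, 932 several and 9160 none, and 59 symbols were brought up to date. Each of 18161 genes was represented by its brightest probe set, by mean over the study. Genes named by no single-gene probe set were not analysed here. In the 12 h comparison 90 genes had probe sets called in opposite directions.

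Means of 11 groups were fitted together with limma 3.58.1 (R 4.3.3), with 14 residual degrees of freedom, to which the moderation added 7.08 (prior SD 0.106). The fit used two-sided moderated tests, Benjamini-Hochberg adjustment over genes and a threshold of 0.05. A run on simulated data used independent noise and few changed genes, so it does not check these calls against effects shared by plates. Comparisons were 12 h against vehicle, 12 h against 6 h, 24 h against 12 h, and the 12 h response of the Tsc2-null line minus that of the Tsc1-null line. The groups, gene lists and named genes were chosen with earlier results of these data known. Named genes were a fixed set, the 4 members of each list with the smallest p, members called against their list, and the 10 largest rises and falls at 12 h (5 in other comparisons) among called genes with a higher group mean of at least 7, without overlap of the groups except in the comparison of lines, and with predicted genes passed over. Alternatives covered normalization, filters, probe set summary, the variance model, array weights, the arrays fitted, the deposited ratios, a minimum fold, a replicate block and each array left out.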

Additional observations from a re-analysis of the deposited data

Results flagged for a closer look

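The genes below had a 12 h response that differed between the Tsc2-null and Tsc1-null lines in limma's test of line by rapamycin, and the report gives both responses. Towards a higher response in the Tsc2-null line, the gap on the log2 scale was 3.06 for Rspo1 (adjusted p = 1.8e-07), 2.99 for Id1, 2.92 for Mt2, 2.32 for Edn1 and 2.15 for Daam2. The 3.06 and 2.99 came from genes with differences of -0.31 and -0.52 in the Tsc1-null line. Towards a lower response, it was -2.29 for Angpt1 (adjusted p = 1.5e-07), -2.21 for Col8a1, -1.97 for Slc20a1, -1.96 for Slc16a3 and -1.94 for Fst. Col8a1 and Fst differed by 2.08 and 2.41 in the Tsc1-null line, so most of their gap arose there. The replication genes Cdc6 and Cdc45 had gaps of -1.66 and -1.19. Hk2 had a gap of -0.51 (adjusted p = 0.0089) with falls in both lines, and Tsc2 messenger one of -1.36 (adjusted p = 5.1e-07). The genotype, p53 and the line cannot be told apart in these gaps. No group held the 4 arrays needed to look for single outlying arrays.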

How the results depend on the processing

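Counts of called genes moved by over 1.5 times under some settings. With every probe set tested, 5333 were higher and 5187 lower than vehicle at 12 h, 1022 higher at 12 h than at 6 h, 1238 lower at 24 h than at 12 h, and 1554 higher in the comparison of lines, from a larger number of tests. A minimum change of 1.5-fold left 1122 higher and 959 lower at 12 h, 156 and 161 against 6 h, 91 and 307 from 12 h to 24 h, and 579 and 472 between lines. Quantile normalization gave 1025 higher against 6 h and 769 higher from 12 h to 24 h. Array weights gave 314 higher and 491 lower against 6 h and 304 higher from 12 h to 24 h, and fitting the Tsc2-null arrays alone gave 312 in the last. The causes of these were not tested. Under the other settings that kept every array, these counts stayed within 1.5 times. The deposited ratios and the filter that left out the dimmest 40% tested 9522 and 10896 genes against 18161. Their counts are therefore shares of fewer genes.

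Leaving out each array in turn gave 2363 to 2835 higher and 2384 to 2905 lower at 12 h, 220 to 504 higher and 348 to 740 lower against 6 h, 134 to 454 higher and 456 to 534 lower from 12 h to 24 h, and 658 to 982 higher and 646 to 1033 lower between lines. Where this left 1 array in a group, that array is assumed to vary like those of other groups. Vehicle and 12 h arrays shared replicate numbers 1 and 2, with correlations of their deviations of 0.124 and 0.007. Deviations of only 2 arrays from their mean mirror each other, so these values cannot show whether plates of the same number were paired. The replicate block gave 2895 higher and 3012 lower at 12 h, 576 and 839 against 6 h, 440 and 718 from 12 h to 24 h, and 936 and 998 between lines.

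Among single-gene results called in the main fit or under the alternative setting, 1 changed sign: Col1a2 read -0.07 in the deposited ratios. Counted per gene, comparison and setting, 111 calls were lost and 10 gained. The remaining 3991 results kept their status, whether called or not. Gem, Fbxo32 and Slc7a11 had a difference of 0.00 in that table. Averaging all probe sets ended the calls of Acacb, Col1a1, Eef2, Gmps, Rrm1 and Slc16a1. With 2 arrays at 12 h, small differences are the least certain.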
